A study of Mus musculus with 14 samples.

Results

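The major histocompatibility complex (MHC) of the mouse, called H-2, and the genes that cut, carry and load its peptides were followed in adipocytes of 3 fat depots on 2 diets. The members were all genes whose symbol starts with H2-, together with B2m, Tap1, Tap2, Tapbp, Nlrc5, Ciita, Cd74, Psmb8, Psmb9 and Psmb10. These were 55 of the 38553 genes listed in each library, 45 of them with an H2- symbol. The class I pathway held 40 of them, the class II pathway held 14, and 1, H2-Ke6, a steroid dehydrogenase gene that only shares the prefix, belonged to neither. A total of 38 members passed a filter on low values (at least 0.5 FPKM, read fragments scaled to transcript length and library size, in at least 3 of the 12 white libraries), 26 of class I, 11 of class II and H2-Ke6. Of those 38, H2-Eb2 passed through 1 group alone, SUB ND, so it had to differ from that group, and it is described by its levels and left out of the counts against SUB ND, which are over 37 members. Of the 55, 10 were listed at 0 in all 14 libraries, and among the members that never averaged 1 FPKM in any group the highest group mean was 0.732 FPKM. One of them, picked out here after its values were seen, was H2-Ea-ps, the disrupted E alpha gene of C57BL/6 mice, which was listed at 0 in 13 libraries and at 0.137 FPKM in library 0 of SUB ND.

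The mice were male C57BL/6 animals fed from weaning at 3 weeks of age, for 16 weeks, on a high fat diet (HFD) or on regular chow (ND). Epididymal (EPI), inguinal subcutaneous (SUB) and interscapular brown (BAT) fat was digested with collagenase, for 20 min in the white depots and 40 min in the brown one, and RNA was taken from the cells that float. The groups were EPI HFD, EPI ND, SUB HFD and SUB ND with 3 libraries each (replicates 0, 1 and 2), and BAT HFD and BAT ND with 1 library each. Each library pools tissue of 3 to 5 mice, and the floating layer was not sorted, so it can carry other cells.

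The adipocyte label was met in every library: 7 adipocyte markers summed to between 10583 and 29692 FPKM. Ucp1, the uncoupling protein of brown fat, stood at 503 FPKM in BAT HFD and 121 FPKM in BAT ND. Libraries 0 and 2 of SUB ND stood apart. Their 8 B cell markers summed to 531 and 541 FPKM and library 1 of that group reached 59.3 FPKM, whereas the 11 other libraries stayed at 11.6 FPKM or below. The 7 T cell markers behaved alike, with 134, 18.1 and 414 FPKM in SUB ND libraries 0, 1 and 2 and at most 8.16 FPKM elsewhere. No B or T cell marker was at 0 in any SUB ND library. Macrophage markers (10 genes) were highest in EPI HFD, at 1989, 1960 and 1125 FPKM, against 434 to 855 FPKM in EPI ND, 228 to 377 FPKM in SUB HFD, 181 to 470 FPKM in SUB ND, 156 FPKM in BAT HFD and 12.7 FPKM in BAT ND. Comparisons of members or partner genes with SUB ND are therefore also given without its libraries 0 and 2.

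Class I molecules sit on almost all nucleated cells and show peptides from inside the cell to CD8 T cells. A heavy chain pairs with beta-2-microglobulin (B2m), the immunoproteasome cuts the peptides, the TAP transporter carries them into the endoplasmic reticulum and tapasin helps to load them. Class II molecules show peptides from endosomes to CD4 T cells and are typical of B cells, macrophages and dendritic cells, although adipocytes have also been described to carry them. Their alpha and beta chains travel with the invariant chain (Cd74), H2-DM exchanges its fragment for peptide, H2-O, found mainly in B cells, restrains H2-DM, and the transactivator Ciita switches the set on. Nlrc5 is the corresponding transactivator of class I genes.

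The promoters of 3 class II and 2 class I members are shown so that the levels given below can be read beside the elements these genes carry. The stretches run from 250 bases before to 50 bases after the RefSeq transcription start on GRCm38.p6, 5′ to 3′ on the strand of the gene. Capitals mark the Y box core GATTGG, the X1 box core, the class I enhancer A and the interferon-stimulated response element on either strand, with no overlap between them in these stretches (CCAATC is the Y box core read on the other strand). They lie at chr17:34000298-34000597 (minus strand, H2-K1), chr2:122147437-122147736 (plus strand, B2m), chr17:34305617-34305916 (plus strand, H2-Eb1), chr17:34152941-34153240 (plus strand, H2-DMb1) and chr17:34238655-34238954 (plus strand, H2-Ob).
H2-K1: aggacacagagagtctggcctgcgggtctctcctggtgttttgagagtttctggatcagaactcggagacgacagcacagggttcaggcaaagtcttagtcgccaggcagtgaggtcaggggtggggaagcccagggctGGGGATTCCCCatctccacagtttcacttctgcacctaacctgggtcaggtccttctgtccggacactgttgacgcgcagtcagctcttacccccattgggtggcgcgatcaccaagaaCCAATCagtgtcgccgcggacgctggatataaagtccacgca
B2m: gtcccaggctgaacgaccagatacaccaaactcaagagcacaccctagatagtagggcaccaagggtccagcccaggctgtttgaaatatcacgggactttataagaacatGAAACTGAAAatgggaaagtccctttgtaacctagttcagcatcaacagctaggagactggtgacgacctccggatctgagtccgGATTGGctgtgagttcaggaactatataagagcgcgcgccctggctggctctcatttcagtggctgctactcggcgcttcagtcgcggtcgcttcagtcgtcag
H2-Eb1: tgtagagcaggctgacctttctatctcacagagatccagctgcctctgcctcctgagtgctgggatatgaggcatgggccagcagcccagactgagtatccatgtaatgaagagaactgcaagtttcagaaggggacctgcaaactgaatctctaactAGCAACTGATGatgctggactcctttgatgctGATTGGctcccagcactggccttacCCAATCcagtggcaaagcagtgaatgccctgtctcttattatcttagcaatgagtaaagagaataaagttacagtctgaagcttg
H2-DMb1: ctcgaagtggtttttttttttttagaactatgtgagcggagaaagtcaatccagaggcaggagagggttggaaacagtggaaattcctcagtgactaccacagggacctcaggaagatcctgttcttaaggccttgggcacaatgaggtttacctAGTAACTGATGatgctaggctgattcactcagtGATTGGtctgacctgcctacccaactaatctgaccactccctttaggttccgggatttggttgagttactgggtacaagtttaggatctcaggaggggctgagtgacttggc
H2-Ob: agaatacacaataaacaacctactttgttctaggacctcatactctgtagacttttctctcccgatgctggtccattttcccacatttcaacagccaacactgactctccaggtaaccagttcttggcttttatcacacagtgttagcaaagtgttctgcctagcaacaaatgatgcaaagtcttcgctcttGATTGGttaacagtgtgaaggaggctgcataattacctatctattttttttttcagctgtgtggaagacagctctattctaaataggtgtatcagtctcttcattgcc

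A promoter was given for 38 of the 55 members, 29 of class I, 8 of class II and H2-Ke6. The first listed promoter of each gene held the Y box core in 20 of the 29 class I and 7 of the 8 class II members, and in 16.6% of 27025 promoters of that length. The X1 box core was in 5 class I and 4 class II members and in 0.999% of all promoters. The class I members with it were Psmb10, on the other strand, and H2-M10 copies that reached at most 0.0879 FPKM in any library. In those copies the X1 core began 216 to 223 bases before the start. Enhancer A was in 3 class I and in no class II member, against 0.429% of all promoters, and the interferon-stimulated response element was in 3 class I and in no class II member, against 3.49%. Many class I genes are near-identical copies, so these are not independent counts. H2-DMb1 and H2-Eb1 hold an X1 box core and a Y box core at nearly the same distance from the start, the X1 core beginning 95 and 92 bases and the Y core 62 and 60 bases before it. H2-Ob holds the Y box core alone.

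In white fat B2m had the highest level of all members in every library. On the FPKM scale, which is per length, B2m averaged 2096 ± 80.4 FPKM in EPI HFD, 1443 ± 269.6 in EPI ND, 2268 ± 129 in SUB HFD and 1856 ± 79.1 in SUB ND (SD, n = 3 each). The heavy chains H2-K1 and H2-D1 had group means between 439 and 1033 FPKM. Of class II, the invariant chain Cd74 averaged 262 to 852 FPKM, and the chains H2-Aa, H2-Ab1 and H2-Eb1 averaged 107 to 435 FPKM. Ciita averaged 1.54 to 13.5 FPKM and Nlrc5 6.36 to 20.5 FPKM. The heat map by library shows 3 blocks of difference: tapasin, the classical chains and H2-DMb1 in EPI HFD, the lymphocyte-rich pair of SUB ND libraries, and the low class II values of BAT.

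**Figure D1:**
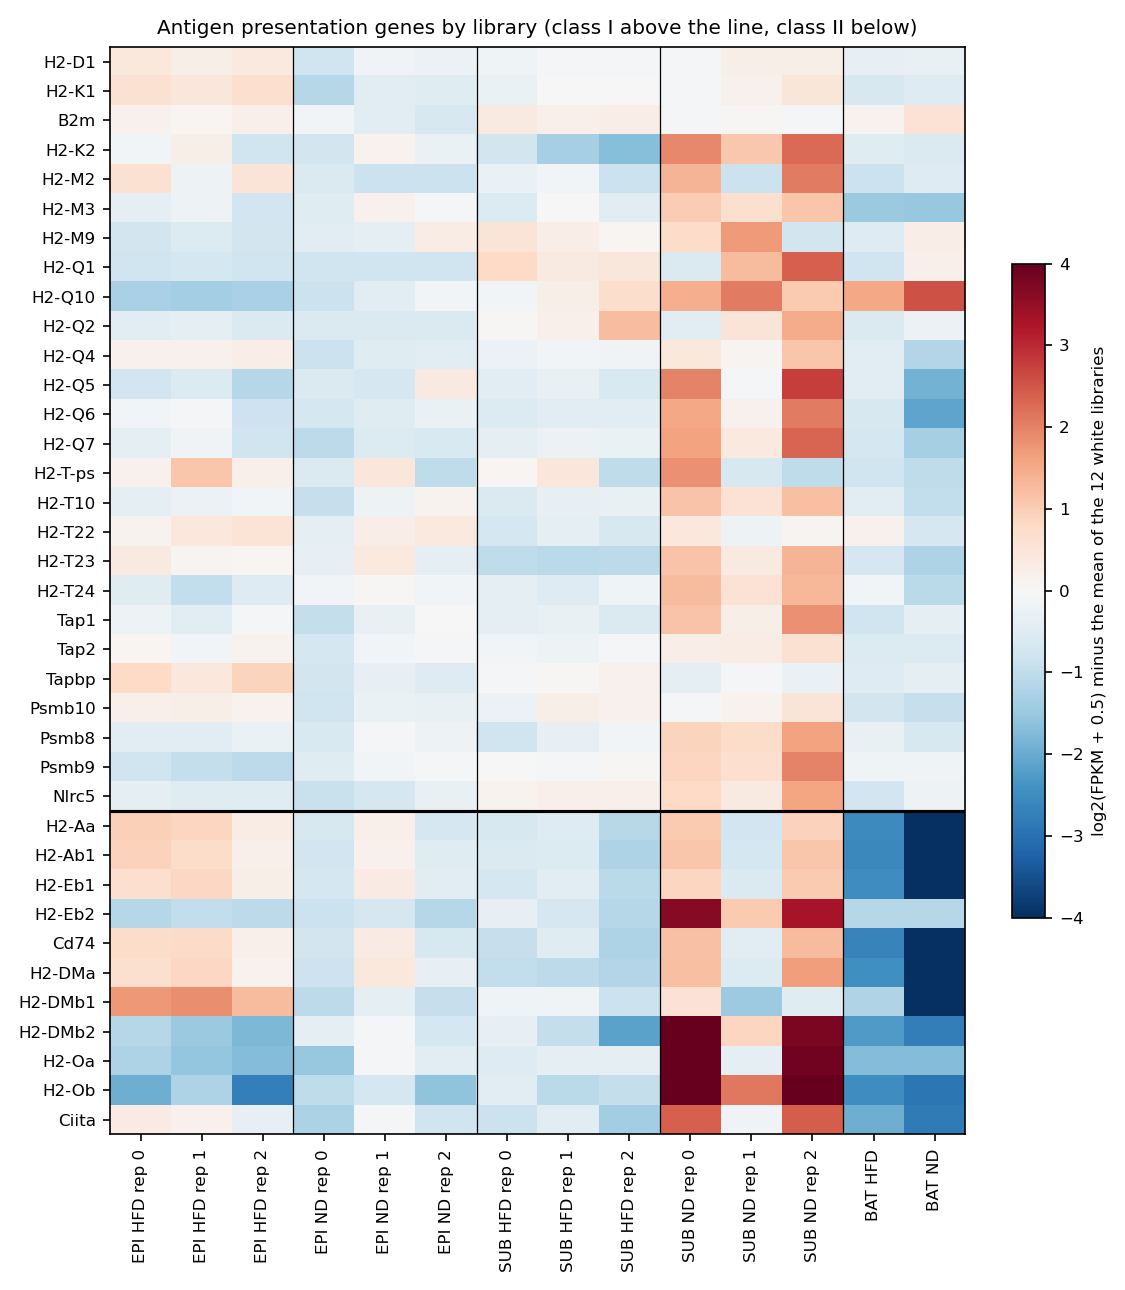
Heat map of the 37 class I and class II members tested (rows, class I above the black line) in 14 libraries (columns, 1 library per column), coloured by log2(FPKM + 0.5) minus the gene's mean over the 12 white libraries; values beyond the colour scale take its end colour. Libraries 0 and 2 of SUB ND are dark red for H2-Ob, H2-Oa, H2-DMb2 and H2-Eb2, EPI HFD is red for H2-DMb1 and Tapbp, and BAT ND is dark blue for H2-Aa, H2-Ab1, H2-Eb1, Cd74, H2-DMa and H2-DMb1.

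In epididymal adipocytes on HFD the classical class I chains, tapasin and H2-DMb1 were higher than on ND. Differences were tested with limma on log2(FPKM + 0.5) with Benjamini-Hochberg adjustment over 14959 genes, and an adjusted p under 0.05 was a call. Of the 38 members tested, 6 were higher (15.8%) and 1 was lower (2.63%), beside 12.2% of all genes higher and 7.35% lower, so the share of members called stood near that of all genes. The 6 were H2-K1, H2-D1, H2-Q4, Tapbp and Psmb10 of class I and H2-DMb1 of class II. The lower one was H2-Ke6, at 30.3, 21.5 and 31.6 FPKM in EPI HFD and 35.2, 50.5 and 64.7 FPKM in EPI ND (log2 difference -0.82, SE 0.25, limma adjusted p = 0.0412). The median log2 difference was 0.19 over the class I and 0.78 over the class II members tested, beside 0.07 over all genes.

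H2-K1, a classical heavy chain gene (chr17:33996012-34000619), stood at 1049.8, 943 and 1105 FPKM in EPI HFD and at 316, 504 and 497 FPKM in EPI ND. Every HFD library was above every ND library, and the means differed 2.35-fold (log2 difference 1.26, SE 0.24, limma adjusted p = 0.003). H2-D1, the other classical heavy chain gene of this strain (chr17:35263094-35267497), showed a smaller difference, with 867, 753 and 839 FPKM in EPI HFD and 369.6, 583 and 549 FPKM in EPI ND. Its groups did not overlap either (log2 difference 0.74, SE 0.21, limma adjusted p = 0.031). The light chain B2m had 2134, 2004 and 2150.4 FPKM in EPI HFD and 1734, 1394 and 1202 FPKM in EPI ND. The B2m groups did not overlap, but the difference did not pass the test (log2 difference 0.55, SE 0.24, limma adjusted p = 0.126).

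Tapbp encodes tapasin, which holds empty class I molecules at the TAP transporter, and it had the smallest adjusted p among the members in this comparison. It had 231, 177 and 246 FPKM in EPI HFD and 79.6, 106 and 93.4 FPKM in EPI ND. The HFD libraries lay well above the ND libraries (2.35-fold, log2 difference 1.22, SE 0.18, limma adjusted p = 0.000554). The transporter genes themselves did not pass: Tap1 averaged 16.0 ± 2.14 FPKM in EPI HFD and 14.4 ± 4.61 in EPI ND, and the log2 difference of Tap2 was 0.33 (SE 0.19, limma adjusted p = 0.266). H2-Q4, a class Ib heavy chain gene, averaged 67.1 ± 2.11 FPKM in EPI HFD and 38.8 ± 5.92 in EPI ND (SD, n = 3 each; log2 difference 0.80, limma adjusted p = 0.0274). The transactivator Nlrc5 had nearly the same level on both diets, 7.17 ± 0.314 FPKM in EPI HFD and 6.36 ± 1.48 in EPI ND (log2 difference 0.18, SE 0.27, limma adjusted p = 0.707).

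The 3 immunoproteasome subunits did not move together. Psmb10 had 36.8, 38.2 and 35.6 FPKM in EPI HFD and 18.1, 26.8 and 26.2 FPKM in EPI ND, and was called higher (log2 difference 0.65, SE 0.21, limma adjusted p = 0.0477). Psmb8 had 24.1, 23.9 and 26.9 FPKM in EPI HFD and 20.9, 31.4 and 27.8 FPKM in EPI ND, and the groups overlapped (log2 difference -0.08, SE 0.26, limma adjusted p = 0.889). Psmb9 had 9.88, 8.94 and 8.24 FPKM in EPI HFD and 12.5, 16.4 and 16.7 FPKM in EPI ND. Every HFD library was below every ND library, yet the Psmb9 difference did not pass (log2 difference -0.71, SE 0.29, limma adjusted p = 0.106), and it did pass with SUB ND libraries 0 and 2 left out of the shared spread (limma adjusted p = 0.00653).

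Each immunoproteasome subunit replaces a constitutive one, and the ratio within a library is free of its scaling. Psmb9 over the Psmb6 subunit it replaces was 0.0743, 0.0719 and 0.0625 in EPI HFD and 0.177, 0.170 and 0.160 in EPI ND. Psmb8 over Psmb5 was 0.224, 0.245 and 0.262 in EPI HFD and 0.429, 0.428 and 0.429 in EPI ND. Psmb10 over Psmb7 was 0.355, 0.360 and 0.311 in EPI HFD and 0.265, 0.312 and 0.286 in EPI ND. The ratios of Psmb9 and Psmb8 were lower in every HFD library than in any ND library, and those of Psmb10 overlapped. The constitutive subunits stood higher in EPI HFD than in EPI ND, with log2 differences of 0.74 for Psmb5, 0.53 for Psmb6 and 0.41 for Psmb7. Not all of these passed, as only 1 of 6 genes of the constitutive proteasome and its regulator was called higher. The lower Psmb8 ratio thus went with a higher Psmb5 level, while the log2 difference of Psmb8 itself was -0.08. In SUB ND the ratios were the highest of the white groups for Psmb9 (0.478, 0.282 and 0.679) and for Psmb8 (1.21, 0.668 and 2.28), against 0.154 to 0.218 and 0.212 to 0.316 in SUB HFD.

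**Figure D2:**
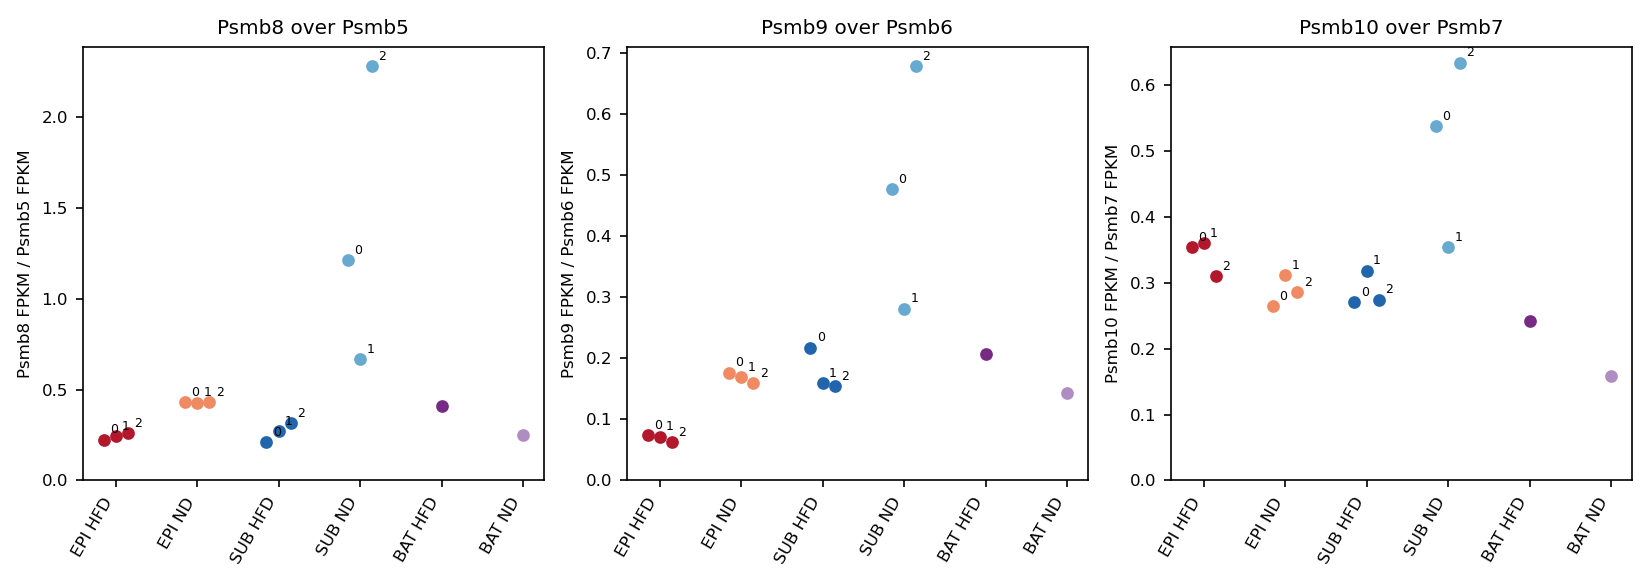
Ratio of each immunoproteasome subunit to the constitutive subunit it replaces, as FPKM over FPKM (y axis, linear from 0), in each library (points, labelled with the replicate number) of the 6 groups (x axis). For Psmb8 over Psmb5 and Psmb9 over Psmb6 the EPI HFD points lie below the EPI ND points and the SUB ND points lie above all other white points. A ratio does not tell a lower immunoproteasome subunit from a higher constitutive one.

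Among the class II genes of epididymal fat, H2-DMb1, a beta chain of the peptide editor H2-DM (chr17:34153191-34160229), was the only one called in the fit of 4 groups. It had 50.9, 56.3 and 37.3 FPKM in EPI HFD and 7.07, 11.3 and 7.72 FPKM in EPI ND. The lowest HFD library was above the highest ND library by a wide margin (5.53-fold, log2 difference 2.41, SE 0.42, limma adjusted p = 0.00179). Its neighbour copy H2-DMb2 (chr17:34143229-34151553) stood the other way round, at 1.29, 0.908 and 0.647 FPKM in EPI HFD and 2.56, 3.28 and 1.92 FPKM in EPI ND (log2 difference -1.09, SE 0.73, limma adjusted p = 0.347). H2-DMb2 thus made up 2.47%, 1.59% and 1.70% of the summed H2-DM beta FPKM in EPI HFD and 26.6%, 22.4% and 19.9% in EPI ND. The copies are near-identical in sequence, and how shared reads were divided was not given, so this split is uncertain, as are levels within the H2-K, H2-D, H2-Q and H2-T families.

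The class II chains and their invariant chain were at higher levels in EPI HFD but did not pass in that fit. H2-Aa had 507, 474 and 324 FPKM in EPI HFD and 169, 305 and 164 FPKM in EPI ND, without overlap (log2 difference 1.07, SE 0.43, limma adjusted p = 0.109). H2-Ab1 had 345, 299 and 210.3 FPKM in EPI HFD and 107, 206 and 128 FPKM in EPI ND (log2 difference 0.98, SE 0.44, limma adjusted p = 0.154). The log2 difference was 0.85 for H2-Eb1 (SE 0.40, limma adjusted p = 0.17), 0.92 for Cd74 (SE 0.44, limma adjusted p = 0.174) and 0.76 for Ciita (SE 0.60, limma adjusted p = 0.429), and in each of these replicate 1 of EPI ND reached into the HFD range. When the 2 EPI groups were fitted alone, H2-Aa and H2-Ab1 were called higher and H2-DMb2 lower, while H2-Eb1, Cd74 and Ciita were not called. With SUB ND libraries 0 and 2 left out the log2 differences stayed as they were, the shared spread was smaller, and H2-Aa (limma adjusted p = 0.0161), H2-Ab1 (0.0282), Cd74 (0.0476) and H2-Eb1 (0.0485) passed. In that fit 11 of 38 members were called higher, beside 17.2% of all genes, and 4 lower, beside 10.5%, so the lower calls stood at the share of all genes.

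**Figure D3:**
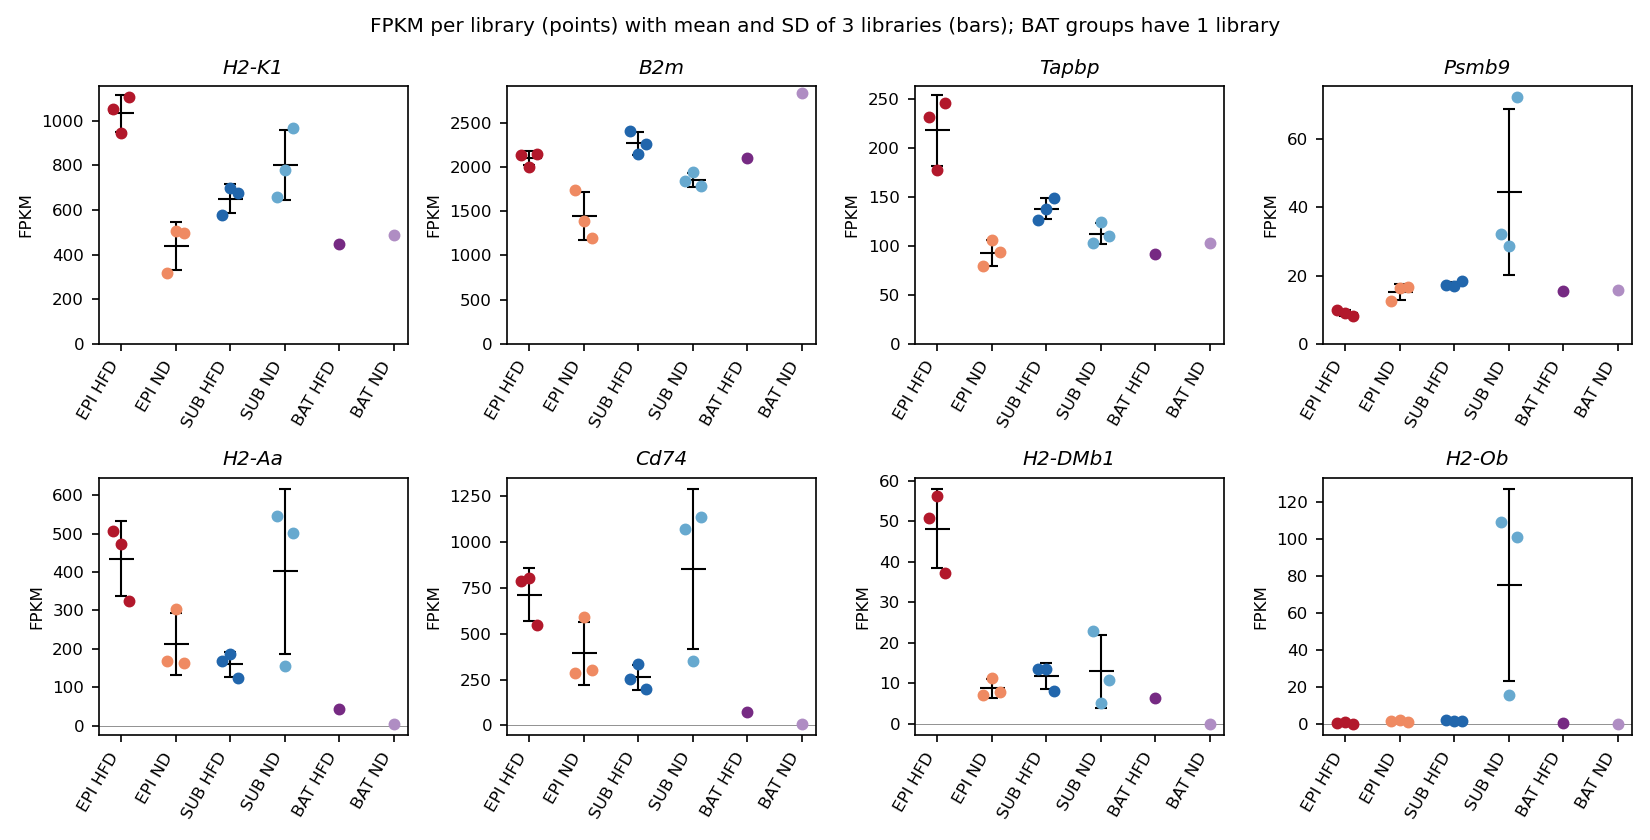
FPKM (y axes, linear, 1 panel per gene) in each of the 14 libraries (points) of the 6 groups (x axis), with mean and SD of the 3 libraries of each white group (bars). The means of H2-K1, Tapbp and H2-DMb1 are highest in EPI HFD, whereas the SUB ND libraries spread widely for H2-Aa, Cd74, Psmb9 and H2-Ob, and both BAT libraries are near 0 on these axes for H2-Ob.

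The calls of H2-K1, Tapbp and H2-DMb1 held when any single library was left out, with adjusted p no higher than 0.0168, 0.0047 and 0.011. Those of H2-D1, H2-Q4, Psmb10 and H2-Ke6 were lost in 4, 5, 8 and 7 of the 12 leave-outs, with adjusted p up to 0.112 for H2-D1 without EPI HFD replicate 0, 0.0965 for H2-Q4 and 0.16 for Psmb10 without EPI ND replicate 0, and 0.163 for H2-Ke6 without EPI HFD replicate 1. Other cell markers moved in the same comparison: 5 of 10 macrophage markers were called higher, among them Cd68 at 320 FPKM in EPI HFD and 34.6 FPKM in EPI ND, 8 of 8 endothelial markers were called lower, and 0 of 8 B cell markers were called. Of 7 dendritic cell markers tested, 1 was called higher and 2 lower. Fibroblast and progenitor markers had 4 of 7 called lower, with a median log2 difference of -2.37. The part of all these cells in the class I and class II differences was not tested, and in bulk RNA fewer cells of a type and less RNA per cell cannot be told apart.

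In inguinal adipocytes on HFD, members of both classes were lower than on ND and none was called higher. The lower calls were 19 of 37 members (51.4%), beside 10.2% of all genes, and the higher calls 0 of 37, beside 9.3% of all genes; at an unadjusted p under 0.05, limma gave 0 members higher. Class I gave 13 of the 19 (H2-K2, H2-M3, H2-Q10, H2-Q4, H2-Q5, H2-Q6, H2-Q7, H2-T10, H2-T23, H2-T24, Psmb8, Psmb9 and Tap1) and class II gave 6 (Cd74, Ciita, H2-DMa, H2-DMb2, H2-Oa and H2-Ob). RefSeq annotates H2-K2, H2-Q5 and H2-T10 as transcribed pseudogenes. The median log2 difference was -0.96 over 26 class I and -1.70 over 10 class II members, beside -0.01 over all genes. Without SUB ND libraries 0 and 2, which leaves library 1 alone and assumes that it varies like the other groups, the lower calls were 5 of 37 (H2-K2, H2-Q10, H2-T23, Psmb8 and H2-Ob; 13.5%, beside 3.75% of all genes), all of them among the 19, the higher calls were 0, beside 2.93%, and the medians were -0.52 and -0.30.

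Genes of the class II editors were among those with the largest differences. H2-Ob, the beta chain of H2-O (chr17:34238905-34245908), had 2.20, 1.26 and 1.41 FPKM in SUB HFD and 109, 15.6 and 101 FPKM in SUB ND (log2 difference -4.75, SE 0.63, limma adjusted p = 0.000724). H2-DMb2 had 2.66, 1.55 and 0.404 FPKM in SUB HFD and 80.2, 6.76 and 53.5 FPKM in SUB ND (log2 difference -4.13, SE 0.73, limma adjusted p = 0.00322). H2-Oa, the alpha chain of H2-O, had 0.660, 0.776 and 0.784 FPKM in SUB HFD and 33.8, 0.791 and 23.6 FPKM in SUB ND. Library 1 of SUB ND thus lay at the H2-Oa level of the HFD group, and far below the other 2 ND libraries for H2-Ob and H2-DMb2. H2-Eb2, a second E beta chain gene, had 0.371, 0.188 and 0 FPKM in SUB HFD and 13.3, 1.77 and 10.3 FPKM in SUB ND, with library 1 again the lowest of the ND libraries. Without libraries 0 and 2 the adjusted p was 0.0725 for H2-DMb2 and 0.975 for H2-Oa.

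The class II chains followed the same split between ND libraries. H2-Aa had 169, 185 and 123 FPKM in SUB HFD and 546, 155 and 503 FPKM in SUB ND. Cd74 had 252, 335 and 199 FPKM in SUB HFD and 1069.7, 350.02 and 1136 FPKM in SUB ND. In both genes library 1 of SUB ND stood beside the HFD libraries. Cd74 passed (log2 difference -1.55, SE 0.44, limma adjusted p = 0.0277), as did Ciita (-2.45, SE 0.60, 0.0149), while H2-Aa (-1.15, SE 0.43, 0.0815), H2-Ab1 (-1.30, SE 0.44, 0.0605) and H2-Eb1 (-1.17, SE 0.40, 0.0619) did not. Without libraries 0 and 2 the adjusted p was 0.613 for Cd74 and 0.446 for Ciita. The Cd74 call was also lost without SUB HFD replicate 0 or 2 or SUB ND replicate 0 or 2 (limma adjusted p up to 0.0998), and that of Ciita without SUB HFD replicate 2 or SUB ND replicate 0 or 2 (up to 0.0582).

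On the class I side the classical chains did not pass, whereas 10 of 16 other heavy chain genes and pseudogenes and 2 of 3 immunoproteasome genes (Psmb8 and Psmb9) were lower. H2-K1 had 577, 698 and 676 FPKM in SUB HFD and 656, 781 and 966 FPKM in SUB ND, with overlap (log2 difference -0.29, SE 0.24, limma adjusted p = 0.425). H2-D1 (-0.24, SE 0.21, limma adjusted p = 0.47) and B2m (0.29, SE 0.24, limma adjusted p = 0.419) did not pass either. H2-T23, the gene of the class Ib chain Qa-1, which is the ligand of the inhibitory receptor NKG2A on natural killer cells, had 21.3, 20.4 and 20.9 FPKM in SUB HFD and 95.6, 56.4 and 112 FPKM in SUB ND. The 3 HFD libraries were almost level, and all of them were below the lowest ND library (log2 difference -1.99, SE 0.26, limma adjusted p = 0.000671). H2-K2, the transcribed pseudogene of the K region, had 1.94, 1.12 and 0.740 FPKM in SUB HFD and 14.98, 8.09 and 19.1 FPKM in SUB ND (log2 difference -3.02, SE 0.39, limma adjusted p = 0.000577). Psmb8 had 18.3, 25.7 and 30.0 FPKM in SUB HFD and 60.7, 54.0 and 101 FPKM in SUB ND (log2 difference -1.497, SE 0.26, limma adjusted p = 0.00268). Psmb10 did not pass (log2 difference -0.15, limma adjusted p = 0.657). The other class I calls lay between log2 differences of -0.71 (H2-Q4) and -2.00 (H2-Q5). Nlrc5 did not pass (log2 difference -0.73, SE 0.27, limma adjusted p = 0.0764).

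H2-K2, H2-T23, Psmb8 and H2-Ob were the members called lower in SUB HFD in every one of the 21 alternative fits. For H2-K2, H2-T23, Psmb8 and H2-Ob, library 1 of SUB ND was also above all 3 HFD libraries. The same held for the other members called lower, although only narrowly for Cd74 and H2-Oa. In this comparison 8 of 8 B cell and 7 of 7 T cell markers were called lower, with B cell sums of 5.51 to 11.6 FPKM in SUB HFD and 59.3 to 541 FPKM in SUB ND, while 1 of 10 macrophage markers was called higher. Of 7 fibroblast and progenitor markers 5 were called lower. Of 7 dendritic cell markers 3 were called lower and 1 higher. Library 1 of SUB ND held 59.3 FPKM of B cell markers too. With libraries 0 and 2 left out, which leaves library 1 alone, marker differences remained. The median log2 difference was then -1.90 over the B cell, -1.30 over the T cell and -2.89 over the fibroblast and progenitor markers. The part of these cells in the lower MHC values was not tested.

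**Figure D4:**
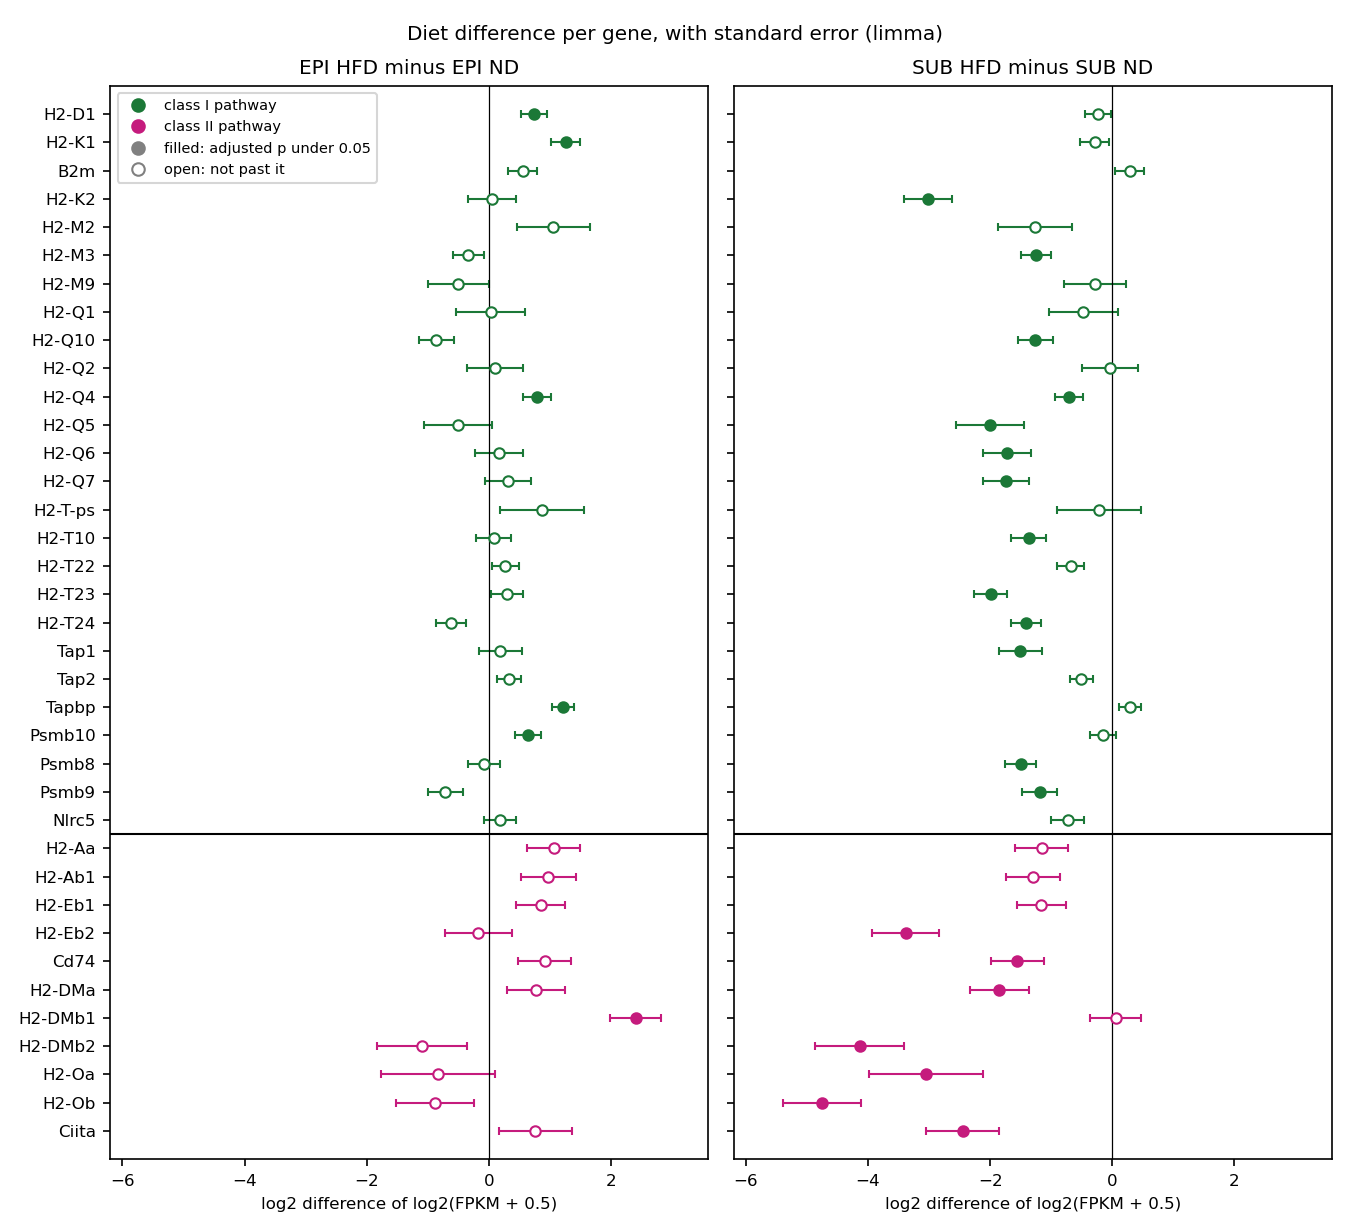
Diet difference of each class I and class II member tested (rows, class I in green above the line, class II in magenta below) as the log2 difference of log2(FPKM + 0.5) with its standard error (bars), in EPI (left panel) and SUB (right panel). Filled points had a limma adjusted p under 0.05. In EPI they lie to the right of 0 (Tapbp, H2-K1, H2-D1, H2-Q4, Psmb10 and H2-DMb1), and in SUB to the left, with H2-Ob at -4.75 and H2-DMb2 at -4.13.

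The difference between the 2 depots in their response to diet was tested as an interaction, the EPI diet difference minus the SUB diet difference. It was above 0 and called for 14 of 37 members (37.8%), beside 4.8% of all genes, and below 0 for 0 members, beside 2.42%; at an unadjusted p under 0.05, 0 members were below 0. The calls were 7 of 26 class I and 7 of 10 class II members, with medians of 0.96 and 2.41 beside 0.07 over all genes. Among cell markers in this contrast, 3 of 8 B cell (median 3.38) and 0 of 7 T cell (3.06) were called above 0. Of 10 macrophage markers 2 were called above 0 (median 1.22), and of 8 endothelial markers 8 were called below 0 (-2.28). The part of these cells in the interaction was not tested. H2-T23 (log2 2.29, SE 0.37, limma adjusted p = 0.00666) and H2-Q4 (1.504, SE 0.32, 0.0179) were called in every alternative fit that gave an interaction. H2-K1 (1.55, SE 0.34, 0.0195) was lost without EPI HFD replicate 0 alone among the single libraries (limma adjusted p = 0.0602). The interactions of Cd74 (2.47, SE 0.62, 0.0342), Ciita (3.21, SE 0.84, 0.0414), H2-Aa (2.22, SE 0.61, 0.0485) and H2-Ab1 (2.28, SE 0.63, 0.0493) were lost in 9, 10, 10 and 10 of the 12 leave-outs. Without SUB ND libraries 0 and 2 the interaction was called for 3 of 37 members (8.11%, beside 3.35% of all genes), H2-K1, H2-Q4 and H2-T23, and for no class II member, with a class II median of 1.18; the class II adjusted p then was 0.112 or higher, and 5 of the 10 had an unadjusted p under 0.05.

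Between the white depots on HFD, the EPI libraries had more H2-DMb1, H2-T22, H2-T23 and Tapbp and less H2-Q10 than the SUB libraries. Higher calls were 4 of 38 members (10.5%), beside 7.08% of all genes, and lower calls 1 of 38 (2.63%), beside 3.53%. H2-DMb1 averaged 48.2 ± 9.77 FPKM in EPI HFD and 11.7 ± 3.18 in SUB HFD (SD, n = 3 each; log2 difference 2.01, limma adjusted p = 0.0101). H2-T23 averaged 49.8 ± 5.77 FPKM in EPI HFD and 20.9 ± 0.435 in SUB HFD (log2 difference 1.23, limma adjusted p = 0.0113). H2-T22, a class Ib chain recognised by gamma delta T cells, averaged 56.2 ± 8.02 FPKM in EPI HFD and 28.9 ± 3.67 in SUB HFD (log2 difference 0.94, limma adjusted p = 0.0188). The spread behind these tests is shared with the ND groups. H2-Q10, a class I gene known for a secreted product of the liver, had 5.80, 5.49 and 5.82 FPKM in EPI HFD and 13.9, 17.6 and 24.7 FPKM in SUB HFD (log2 difference -1.59, SE 0.28, limma adjusted p = 0.00455), and its call held in every alternative fit.

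The class II chains were at 2.46 to 2.74 times the SUB HFD mean in EPI HFD without passing in the fit of 4 groups. Cd74 had 788, 805 and 546 FPKM in EPI HFD and 252, 335 and 199 FPKM in SUB HFD (log2 difference 1.45, SE 0.44, limma adjusted p = 0.0545). H2-Aa (1.44, SE 0.43, 0.0537), H2-Ab1 (1.40, SE 0.44, 0.0679) and H2-Eb1 (1.30, SE 0.40, 0.0612) were close to it, and in all 4 genes every EPI HFD library was above every SUB HFD library, as in 23.2% of all genes tested. With SUB ND libraries 0 and 2 left out of the shared spread the adjusted p became 0.00821 for Cd74, 0.0051 for H2-Aa, 0.00697 for H2-Ab1 and 0.0103 for H2-Eb1, and 10 of 38 members were called higher, beside 11.1% of all genes, and 5 lower, beside 6.32%. In the same comparison 7 of 10 macrophage markers were called higher, 8 of 8 endothelial markers lower and 0 of 8 B cell markers either way, and their part was not tested. Tapbp was lost in 6 of 12 leave-outs (adjusted p up to 0.145 without EPI HFD replicate 0 or 2), H2-T22 in 4 (0.0757 without EPI HFD replicate 2), H2-DMb1 in 2 (0.0517 without SUB HFD replicate 2) and H2-T23 without EPI HFD replicate 0 (0.056).

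Between the white depots on ND, members were lower in EPI or not called. Lower calls were 17 of 37 (45.9%), beside 4.15% of all genes, and higher calls 0 of 37, beside 2.36%; at an unadjusted p under 0.05, limma gave 0 members higher. Class I held 14 of the 17 and class II 3 (Ciita, H2-DMb2 and H2-Ob), with medians of -1.13 and -1.02 beside 0.00 over all genes. H2-Ob had 1.36, 1.76 and 0.724 FPKM in EPI ND, against the 15.6 to 109 FPKM of SUB ND given above (log2 difference -5.03, SE 0.63, limma adjusted p = 0.00183). H2-Q10 had 8.11, 10.8 and 14.01 FPKM in EPI ND and 42.1, 64.7 and 31.9 FPKM in SUB ND (log2 difference -2.00, SE 0.28, limma adjusted p = 0.00359). Library 1, the SUB ND library with fewest lymphocyte markers, was the highest for H2-Q10, unlike for H2-Ob. The other class I calls with large differences were H2-Q7 (-2.19, limma adjusted p = 0.00814) and H2-K2 (-2.05, 0.0121), and Nlrc5 was called too (-1.55, SE 0.27, 0.00818).

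H2-K1 was just past the threshold on ND (log2 difference -0.88, SE 0.24, limma adjusted p = 0.0486), while H2-D1 (-0.52, 0.164), B2m (-0.38, 0.352), Cd74 (-1.02, 0.181) and H2-Aa (-0.78, 0.298) were not. All 8 B cell and 6 of 7 T cell markers were called lower in the same comparison, and their part was not tested. Without SUB ND libraries 0 and 2, 4 of 37 members were called lower (H2-Ob and H2-Q10 among the 17, and H2-M9 and H2-Q1; 10.8%, beside 2.70% of all genes), the class I median was -0.68, and the class II median turned to 0.19. The differences of H2-Aa, H2-Ab1, H2-Eb1 and Cd74 were then above 0 and not called. H2-M9 and H2-Q1 were near the floor, and the fit without libraries 0 and 2 sets them against library 1 alone. H2-Q1 was listed at 0 in all EPI ND libraries, so it could not be higher there, and had 1.58 FPKM in library 1. H2-M9 had 0.119, 0.132 and 0.532 FPKM in EPI ND. It had 2.20 FPKM in SUB ND library 1, but 0.880 FPKM in library 0 and 0 in library 2. With the 2 ND groups fitted alone, 1 member, H2-Ob, was called, among 14 of 14938 genes called lower. With H2-Eb2 counted, the lower calls numbered 7 without EPI ND replicate 0, 9 without EPI ND replicate 2 or SUB ND replicate 2 and 11 without EPI ND replicate 1, and H2-Ob was the only member called in all 21 alternative fits.

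The summed FPKM of the class II chains H2-Aa, H2-Ab1 and H2-Eb1 over that of the classical class I chains H2-K1 and H2-D1 sets the classes against each other within a library. The ratio was 0.601, 0.650 and 0.387 in EPI HFD and 0.570, 0.688 and 0.409 in EPI ND. Both sums were larger on HFD, at 1916, 1697 and 1944 FPKM of class I in EPI HFD against 685, 1087 and 1046 FPKM in EPI ND, and 1152, 1103 and 753 FPKM of class II in EPI HFD against 390.3, 747 and 428 FPKM in EPI ND. The ratio therefore overlapped between the diets in EPI. In SUB it was 0.352, 0.341 and 0.226 on HFD and 1.01, 0.256 and 0.741 on ND. The SUB ND libraries 0 and 2 had the largest ratios of all 14, and library 1 lay among the SUB HFD libraries. All EPI HFD ratios were above all SUB HFD ratios.

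**Figure D5:**
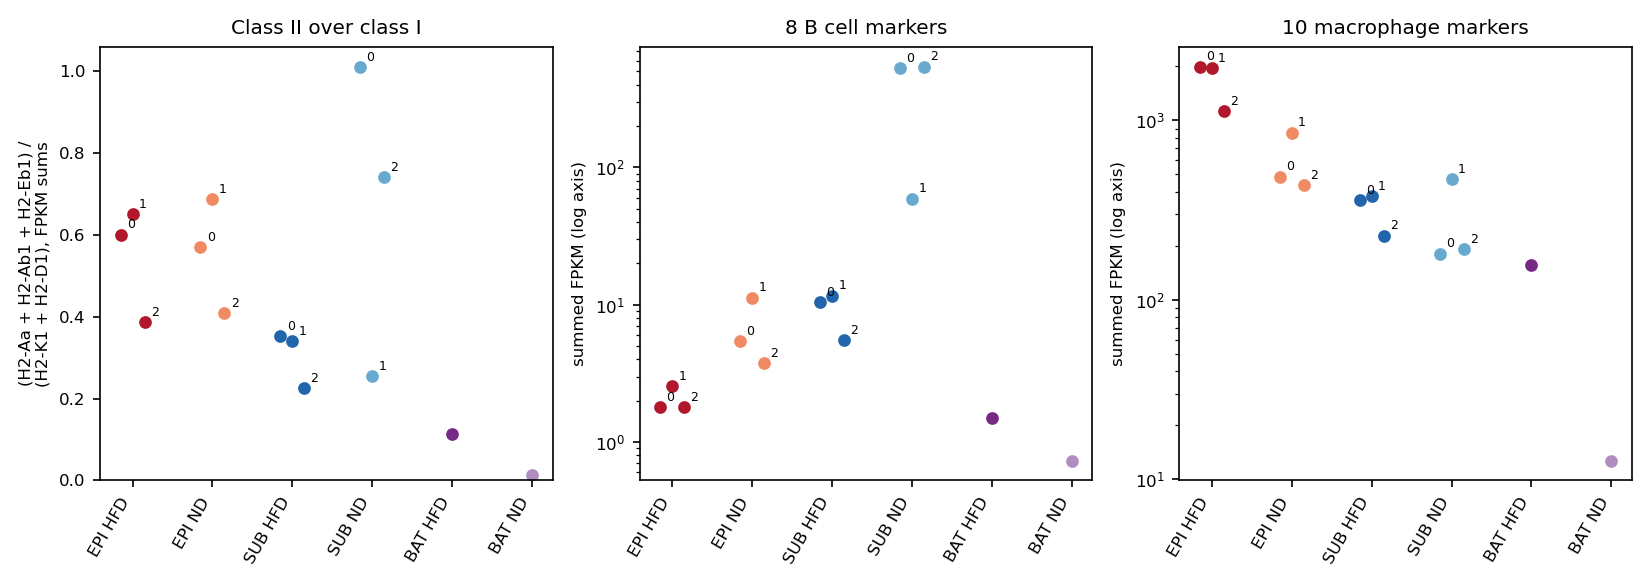
Class II over class I ratio (left, linear axis), summed FPKM of 8 B cell markers (middle, log axis) and of 10 macrophage markers (right, log axis) in each library (points, labelled with the replicate number) of the 6 groups. The ratio of 1.01 in SUB ND library 0 goes with a B cell sum of 531 FPKM, whereas the EPI HFD libraries reach 0.387 to 0.650 with B cell sums of at most 2.55 FPKM and macrophage sums of 1125 to 1989 FPKM. The EPI ND libraries reach 0.409 to 0.688 with B cell sums of at most 11.3 FPKM and macrophage sums of 434 to 855 FPKM.

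Brown fat had H2-K1 and H2-D1 within the range of the white libraries and little class II. With 1 library per diet there is no test. B2m had 2095 FPKM in BAT HFD and 2830.4 FPKM in BAT ND, H2-K1 had 447 FPKM in BAT HFD and 486 FPKM in BAT ND, and H2-D1 had 509.7 FPKM in BAT HFD and 526 FPKM in BAT ND. In these 3 class I genes the BAT HFD library had the lower value, but class I members did not all go that way. H2-Q4 had 43.5 FPKM in BAT HFD and 25.6 FPKM in BAT ND, and H2-T22 had 49.2 FPKM in BAT HFD and 26.9 FPKM in BAT ND. Tapbp had 91.7 FPKM in BAT HFD and 103 FPKM in BAT ND, and Tap1 had 10.6 FPKM in BAT HFD and 14.3 FPKM in BAT ND. Cd74 had 73.4 FPKM in BAT HFD and 9.32 FPKM in BAT ND, H2-Aa had 44.3 FPKM in BAT HFD and 4.64 FPKM in BAT ND, and H2-DMb1 had 6.25 FPKM in BAT HFD while it was listed at 0 in BAT ND. The class II over class I ratio was 0.112 in BAT HFD and 0.0139 in BAT ND, both below the lowest white library. H2-Q10 was high, at 44.5 FPKM in BAT HFD and 90.5 FPKM in BAT ND, the BAT ND value being the largest of the 14 libraries. Macrophage markers summed to 156 FPKM in BAT HFD and 12.7 FPKM in BAT ND, B cell markers to 1.496 FPKM in BAT HFD and 0.731 FPKM in BAT ND, and their part was not tested.

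Of 45 tested genes that work with the members, 11 were higher (24.4%, beside 12.2% of all genes) and 3 lower (6.67%, beside 7.35%) in EPI HFD than in EPI ND, so the lower calls stood near the share of all genes. Peptide processing for class II gave 6 of these, out of 8 genes tested (Ctss, Ifi30, Ctsd, Lgmn, Ctsl and Ctsb). These proteases and Ifi30 are abundant in macrophages, and 5 of 10 macrophage markers were called higher in the same comparison, with sums of 1125 to 1989 FPKM in EPI HFD and 434 to 855 FPKM in EPI ND; their part was not tested. Cathepsin S (Ctss), which trims the invariant chain, had 495, 473 and 332 FPKM in EPI HFD and 43.4, 60.4 and 50.7 FPKM in EPI ND (log2 difference 3.05, SE 0.24, limma adjusted p = 1.02e-05). Ifi30, the thiol reductase of the class II compartment, was also higher (2.39, SE 0.31, limma adjusted p = 0.000242), as was the interferon regulatory factor Irf8 (2.18, SE 0.44, limma adjusted p = 0.00452). The lower calls were Irf1 (-0.98), Irf2 (-0.64) and Jak2 (-0.64), of the interferon pathway that drives both MHC classes, with limma adjusted p of 0.0261, 0.0133 and 0.0216. From that pathway 10 genes were tested, and 2 of them were called higher, Irf8 among them. Of 7 genes of the class II transcription complex 0 were called in EPI, and at an unadjusted p under 0.05 limma gave 2 of them, Rfxap and Creb1, both lower.

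In SUB HFD against SUB ND, 6 of the 45 were higher (13.3%, beside 9.3% of all genes) and 12 lower (26.7%, beside 10.2%), while all 8 B cell and all 7 T cell markers were called lower, whose part was not tested. Without SUB ND libraries 0 and 2, which leaves library 1 alone, the median log2 difference of the 45 was -0.23, beside -0.05 over all genes. The log2 difference was then 1.76 for Hfe, -2.24 for Cd40, -2.01 for Cd80, -0.89 for Irf2 and -3.90 for Procr. The iron regulator Hfe, a class I-like gene outside the H2- names, had 91.5, 108 and 84.9 FPKM in SUB HFD and 15.3, 27.5 and 15.7 FPKM in SUB ND (log2 difference 2.30, SE 0.24, limma adjusted p = 0.000171). Cathepsin D (Ctsd, 1.57, limma adjusted p = 0.00383) and the lipid-presenting Cd1d1 (1.29, 0.00345) were higher too. Without those libraries the adjusted p was 0.00478 for Hfe, 0.0892 for Ctsd and 0.0939 for Cd1d1. All 3 were also called higher in EPI HFD than in EPI ND. The lower calls with the largest differences were the co-stimulator Cd40 (-2.79, limma adjusted p = 0.00124), the protein C receptor Procr (-2.45, 0.016) and March1, a ligase that removes class II from the surface (-2.33, 0.00399), and without those libraries it was 0.0437 for Cd40, 0.00766 for Procr and 0.131 for March1. Irf1 was lower in SUB HFD as well (-1.03, SE 0.27, limma adjusted p = 0.0216), and 4 of 7 class II transcription genes (Rfx5, Nfya, Nfyc and Creb1) were lower, whereas without those libraries the adjusted p of Irf1 was 0.281 and 0 of the 7 were called.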

How the data were processed

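RNA-seq libraries of floating adipocytes (poly(A) RNA, Illumina, per the labels' protocols) were aligned to mm10 using TopHat2 2.0.9. Cuffdiff 2.1.1 then gave gene values, both per the submitters' processing notes. The values deposited by the authors are FPKM per Ensembl gene. Annotation, strand setting and the handling of shared reads are not given in the sources used here. Depth is unknown from FPKM, so no counting error is given, and an exact 0 can be a failed estimate. Symbols were matched to 36638 of 38553 identifiers. Coordinates and promoters are RefSeq's (GRCm38.p6, of which mm10 is the browser name).

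Groups came from the sample titles. limma 3.58.1 in R 4.3.3 (trend, two-sided, Benjamini-Hochberg) was run on log2(FPKM + 0.5) of 14959 genes with at least 0.5 FPKM in at least 3 of 12 white libraries, with 4 group means and 8 residual degrees of freedom. Fold changes on that scale understate low genes. The scripts were tested on simulated data. Brown libraries entered no test.

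The members and lists were chosen with earlier results of these data known. Members averaging at least 1 FPKM in a group could be named. Those given with full statistics were the 4 largest called differences each way and 10 fixed genes (H2-K1, H2-D1, B2m, Psmb8, H2-Aa, H2-Ab1, H2-Eb1, Cd74, Ciita and Nlrc5), and other members were added after their values were seen. For partner genes, up to 3 calls in each direction with the largest differences were named, from genes averaging 2 FPKM or more. The labels do not say what replicate numbers mark. Deviations of same-numbered libraries correlated above 0.1 in every pair only between EPI HFD and SUB HFD (0.184, 0.111 and 0.146). The main fit took no account of such pairs, and no fit paired these 2 groups alone. A replicate block shared by all 4 white groups changed no member's call between EPI HFD and SUB HFD. Alternatives were other pseudocounts (0.1 and 1), filters (none, 2 FPKM), median-of-ratios and quantile scaling, the 2 groups alone, a replicate block, SUB ND without libraries 0 and 2, and each library left out.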

Additional observations from a re-analysis of the deposited data

Results flagged for a closer look

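In 15 members the signed diet difference was higher in epididymal than in inguinal fat by the limma interaction test (EPI HFD minus EPI ND, less SUB HFD minus SUB ND, log2 scale, adjusted p under 0.05). In some of them the larger change was the fall in SUB HFD, as for H2-K2 (0.06 in EPI and -3.02 in SUB) and H2-Ob (-0.88 in EPI and -4.75 in SUB). One of the 15, H2-Eb2, passed the filter on low values through SUB ND alone, so its value is given as a description. Among class I genes the interaction was 1.55 for H2-K1, 3.08 for H2-K2, 1.504 for H2-Q4, 2.05 for H2-Q7, 2.29 for H2-T23, 1.42 for Psmb8 and 0.93 for Tapbp. Among class II genes it was 2.47 for Cd74, 3.21 for Ciita, 2.22 for H2-Aa, 2.28 for H2-Ab1, 2.62 for H2-DMa, 2.35 for H2-DMb1, 3.22 for H2-Eb2 and 3.87 for H2-Ob. Without SUB ND libraries 0 and 2, which held 531 and 541 FPKM of B cell markers, the calls of H2-K1, H2-Q4 and H2-T23 were kept. The 8 B cell markers had a median interaction of 3.38, and the part of other cells in these differences was not tested. The groups hold 3 libraries each, so no single library was tested as standing apart within its group.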

How the results depend on the processing

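Counts here include H2-Eb2. In 1432 fits of the members given with full statistics, no call changed direction: 1170 kept their direction and their side of the threshold, 195 lost a call, 54 gained one, and 13 differences with no call in either fit changed sign, 5 of them without SUB ND libraries 0 and 2. The count of members lower in EPI HFD than in EPI ND was 1, and it was 2 with a pseudocount of 0.1, a filter of 2 FPKM, quantile scaling or the replicate block, 0 with no filter, 3 with median-of-ratios scaling, and 4 with the 2 groups alone or without SUB ND libraries 0 and 2. The count higher in that comparison, 6, was 3 with quantile scaling and 11 without those libraries. In SUB, the lower count of 20 was 9 with the 2 groups alone and 6 without those libraries, and it was 23 with the replicate block. The SUB class I median of -0.96 was -0.64 with no filter, -1.25 with a filter of 2 FPKM and -0.52 without those libraries, which also gave a class II median of -0.45. For EPI HFD against SUB HFD, the count higher (4) was 7 with a filter of 2 FPKM, 12 with the 2 groups alone and 10 without those libraries, and the count lower (1) was 2 with either scaling, 6 with the 2 groups alone and 5 without those libraries. For EPI ND against SUB ND, the count lower (18) was 10 with no filter, 1 with the 2 groups alone and 5 without those libraries, and the medians there were -0.68 (class I) and 0.086 (class II). The interaction count (15) was 4 with no filter, 3 without those libraries (class II median 1.29) and 10 with the replicate block. By the correlation check the numbers may pair libraries only between EPI HFD and SUB HFD, and the replicate block was shared by all 4 white groups. The causes were not tested.

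With single libraries left out, the counts ranged from 3 to 11 higher and 0 to 3 lower in EPI by diet, 14 to 26 lower in SUB by diet, 1 to 9 higher and 1 to 3 lower between depots on HFD, 7 to 27 lower between depots on ND, and 3 to 27 higher for the interaction, whose class II median ranged from 2.18 to 3.29. The upper ends of 11 higher in EPI by diet, 26 lower in SUB by diet, 27 lower between depots on ND and 27 for the interaction came without SUB ND replicate 1. Calls over all 14959 genes rose there too, in the same order from 1818 to 2276, 1523 to 2303, 621 to 1612 and 718 to 1618. The lowest interaction count (3) came without EPI HFD replicate 0, where 269 of all genes were called higher. FPKM carry no depth, so low members such as H2-Oa and H2-Eb2 have no counting limit here, and pools of mice hide the spread between animals.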
